A study of Mus musculus with 6 samples.

Results

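The genes of this report are 9 complement components and regulators, C3, C4b, C1ra, C1s1, C2, Cfb, Cfi, Serping1 and Cd55. They were picked by name from the 54532 genes of the deposited table, by a rule that uses no measured value, although earlier results of these data were known when the list was drawn up. Their RNA was compared between 3 control and 3 induced libraries of a mouse cell line derived from cardiospheres. These are clusters formed in culture by cells that grow out of heart explants. All 6 libraries came from cells of C57BL/6 heart ventricle at passage 30, kept dividing by a lentiviral human telomerase transgene under a CMV promoter and selected with puromycin. By the methods of the study, the explants were of ventricle epicardium, the outer layer of the heart, from 6-week-old mice. Induced cells had received 10 µM 5-azacytidine, an inhibitor of DNA methylation, for 3 days and then, by the labels, 4 weeks of culture in IMDM medium with 2% serum. The methods of the study name another medium and a shorter time for this culture. They give IMDM with more serum for routine growth of the line, and do not tie a culture time to the sequenced controls. Drug, serum, medium and time in culture therefore cannot be told apart. The labels speak of separate samples but not of separate cultures, so p-values measure the spread between these libraries, which may be technical.

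Complement is a set of plasma and surface proteins that marks targets for uptake or lysis. In the classical pathway the proteases C1r and C1s act in turn, and C1s cleaves C4 and C2 to form an enzyme that cleaves C3. In the alternative pathway factor B joins cleaved C3 to form a second enzyme of the same specificity. C1 inhibitor, factor I and decay-accelerating factor restrain these steps. The liver makes most plasma complement, and fibroblasts and other mesenchymal cells make several components locally.

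Because the drug acts on DNA methylation, the promoters of members with an entry in the RefSeq promoter table (GRCm38.p6) are shown, with the CpG dinucleotides, the sites that mammalian DNA methylation uses, in capitals. Methylation was not measured in these libraries. Entries were found for C3, C1ra, C1s1 and Cd55. C1s1 has 2 entries with nearby starts, of which the upstream one is shown. C1s2, the close copy of C1s1 with RNA that moved the other way, is shown for comparison. Each sequence is read 5′ to 3′ on the strand of its gene. It runs from 250 bases before the start of transcription in that promoter table to 30 bases after it.

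C3 (chr17:57228107-57228386, minus strand): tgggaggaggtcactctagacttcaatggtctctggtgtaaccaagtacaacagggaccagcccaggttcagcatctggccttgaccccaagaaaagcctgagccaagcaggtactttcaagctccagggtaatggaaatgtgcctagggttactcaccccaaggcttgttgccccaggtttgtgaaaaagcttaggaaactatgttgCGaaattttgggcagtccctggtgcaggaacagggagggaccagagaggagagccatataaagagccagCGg
C1ra (chr6:124512371-124512650, plus strand): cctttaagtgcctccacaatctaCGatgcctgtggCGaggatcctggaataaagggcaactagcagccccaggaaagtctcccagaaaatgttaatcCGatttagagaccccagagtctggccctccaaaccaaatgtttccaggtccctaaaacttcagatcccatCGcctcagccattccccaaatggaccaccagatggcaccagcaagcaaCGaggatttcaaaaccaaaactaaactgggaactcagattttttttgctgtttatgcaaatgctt
C1s1 (chr6:124542330-124542609, minus strand): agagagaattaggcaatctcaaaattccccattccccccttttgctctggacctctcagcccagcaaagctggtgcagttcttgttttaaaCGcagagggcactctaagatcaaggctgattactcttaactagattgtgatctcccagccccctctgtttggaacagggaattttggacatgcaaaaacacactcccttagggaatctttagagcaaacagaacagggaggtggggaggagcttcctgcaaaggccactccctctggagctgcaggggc
C1s2 (chr6:124636056-124636335, minus strand): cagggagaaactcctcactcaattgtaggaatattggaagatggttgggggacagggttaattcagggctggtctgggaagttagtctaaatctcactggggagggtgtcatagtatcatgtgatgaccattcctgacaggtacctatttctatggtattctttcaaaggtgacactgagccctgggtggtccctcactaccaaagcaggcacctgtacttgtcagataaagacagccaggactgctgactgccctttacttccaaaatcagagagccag
Cd55 (chr1:130462715-130462994, minus strand): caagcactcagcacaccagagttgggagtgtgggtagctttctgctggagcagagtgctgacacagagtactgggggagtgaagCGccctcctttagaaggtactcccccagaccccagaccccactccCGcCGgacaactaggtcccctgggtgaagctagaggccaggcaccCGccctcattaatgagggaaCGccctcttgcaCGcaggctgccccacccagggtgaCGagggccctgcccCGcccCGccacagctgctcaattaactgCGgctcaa

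In the whole table window of 300 bases, which ends 50 bases after the start, C3 held 3 CpG, C1ra 5, C1s1 1 and C1s2 1, whereas Cd55 held 12. The median was 7 over all 32851 promoters (quartiles 3 and 20) and 20 over 13220 promoters of genes tested here. The promoters of C3, C1ra and C1s1 thus lay below both medians, and so did that of C1s2. That of Cd55 lay above the median of all promoters but below that of genes tested here. Motifs of cytokine-responsive factors were searched on both strands. The C/EBP motif TTNNGNAA, present in 40.7% of all promoters, began 70, 58 and 45 bases before the C3 start, and the last of these held a CpG. It also stood 242 and 52 bases before the start of C1s1 shown here (90 bases before the start of the other entry, as its only match), and 72 and 29 bases before and 17 bases after that of C1ra. The TATA box letters TATAAA (8.32% of promoters) stood 15 bases after the C3 start of the table. The STAT motif TTCNNNGAA, present in 8.30% of promoters, matched C1ra at 33 bases after the start. That C1ra start lies inside the gene of the deposited table, which begins at 124512405. Most of the C1ra window (124512371 to 124512670) thus falls within the annotated gene. The CpG count and motif distances of C1ra hold for the start of the promoter table only. Among the 4 members with an entry, none matched the interferon-stimulated response element (3.44% of promoters) or the NF-kB consensus (8.46%), and Cd55 matched none of the motifs searched. A match is a run of letters and no evidence of binding.

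RNA of 6 of the 9 complement genes was higher in induced cells, those of C1ra, C1s1, C4b, C2, C3 and Cfi, and RNA of none was lower. Serping1 and Cd55 did not pass the test, and Cfb had too few reads to be tested. Calls are from the quasi-likelihood test of edgeR at 0.05, with p-values adjusted by Benjamini-Hochberg over all 14246 genes tested. Of all genes tested, 64.8% were called, 32.6% as higher and 32.2% as lower. A rise of at least 2-fold was called for 9.29% of genes and for 5 members, C4b, C3, C1s1, C2 and Cfi, and a fall of that size for 7.83% of genes and 0 members. The groups did not overlap in 6 members, all with induced libraries above, against 68.6% of genes tested (34.1% with induced libraries above and 34.5% below). Cfi passed the filter on low counts through the induced libraries, with 1 control library at the limit, so its call could hardly have been other than a rise. With no filter, the median log2 fold change of the 9 members was 1.07, beside 0.05 over the 25705 genes with a read. In such bulk samples, more cells that make a transcript and more RNA per cell cannot be told apart.

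**Figure D1:**
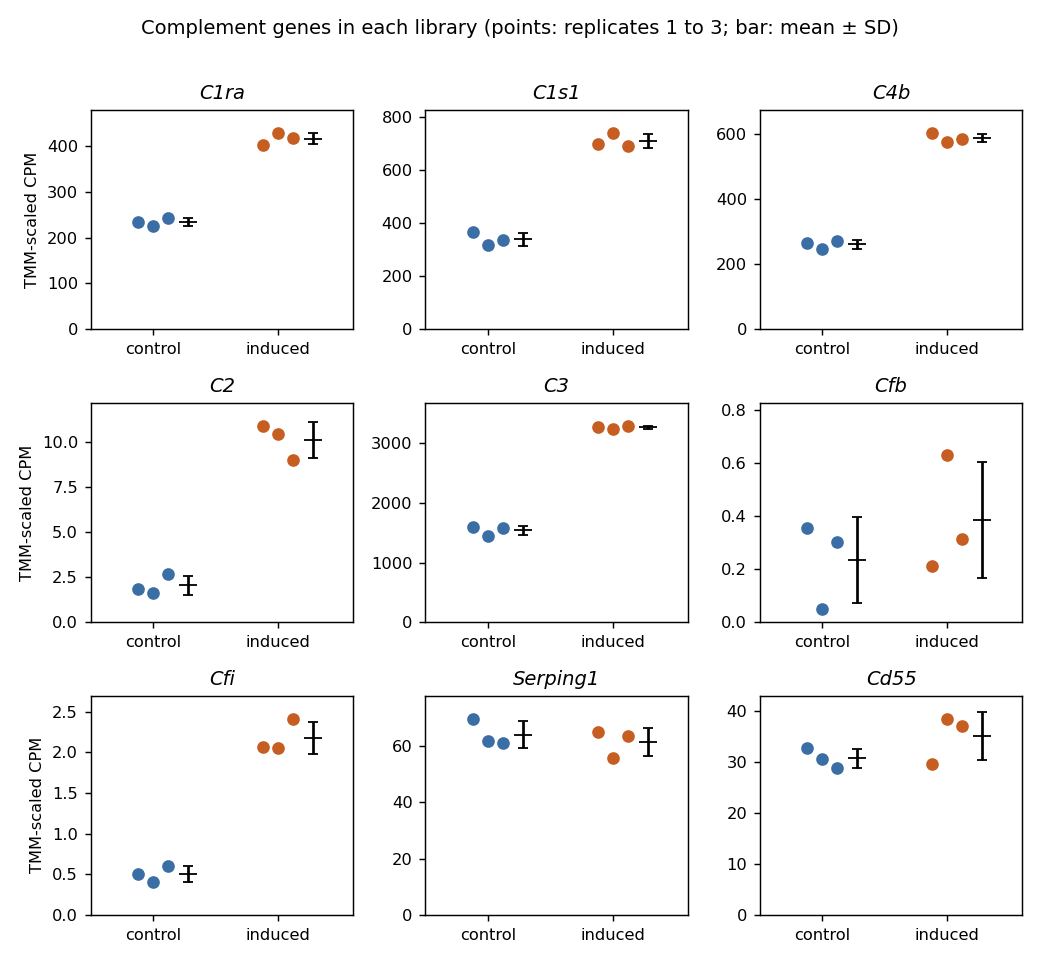
Level of each of the 9 complement genes in every library, in TMM-scaled CPM, counts scaled to the library total (vertical axis, from 0), for control (blue) and induced (orange) libraries; points are libraries 1 to 3 from left to right and the black bar is the mean ± SD. Induced points lie above all control points for C1ra, C1s1, C4b, C2, C3 and Cfi, and the groups overlap for Cfb, Serping1 and Cd55.

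C3 (ENSMUSG00000024164, chromosome 17, 57203970 to 57228136, minus strand), the component on which all complement pathways converge, was the most abundant member per length. Its FPKM, the deposited count scaled to gene length and library depth, was 306, 278 and 306 in control libraries 1 to 3 and 637, 629 and 639 in induced libraries. The induced libraries differed little from each other, and the lowest of them stood well above the highest control. In CPM, counts scaled to the library total by TMM, mean C3 rose from 1541 ± 80.4 to 3272 ± 22.6 (SD, n = 3 each). The log2 fold change was 1.09 (SE 0.04, edgeR adjusted p = 1.12e-13), or 2.12-fold. By mean FPKM, C3 stood at rank 160 among all genes of the table in control cells and at rank 53 in induced cells.

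C1ra and C1s1 encode the serine proteases C1r and C1s, and are neighbours on chromosome 6. C1ra (ENSMUSG00000055172, 124512405 to 124523443, plus strand) had an FPKM of 78.2, 74.9 and 81.1 in control libraries and 135, 143 and 140.2 in induced libraries. Mean C1ra was 234.9 ± 8.93 CPM against 416.6 ± 12.5 CPM, a log2 fold change of 0.83 (SE 0.05, edgeR adjusted p = 2.48e-11). At 1.77-fold this was the smallest of the 6 rises. C1s1 (ENSMUSG00000038521, 124530345 to 124542359, minus strand) had an FPKM of 116, 99.8 and 106 in control libraries and 223, 235 and 220.2 in induced libraries. Its mean of 339.1 ± 25.7 CPM in control cells became 709.1 ± 26.0 CPM, a log2 fold change of 1.06 (SE 0.05, edgeR adjusted p = 3.79e-12). The C1s1 to C1ra ratio of FPKM was 1.49, 1.33 and 1.31 in control libraries and 1.65, 1.64 and 1.57 in induced libraries. In FPKM as deposited, the protease pair thus kept its order in every library. By the annotation, 35.9% of the 100-base windows of the C1ra transcript also occur in its copies C1rb or Gm18840, and 7.90% of those of C1s1 occur in C1s2. Gm16567, on the opposite strand, overlaps 18.4% of the exon bases of C1s1. How reads in such shared stretches were counted is not given in the sources used here, so the order of the pair is uncertain.

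C4b and C2 encode the substrates of C1s, whose fragments form the classical C3-cleaving enzyme. C4b (ENSMUSG00000073418, chromosome 17, 34728380 to 34743882, minus strand) had an FPKM of 46.1, 42.6 and 47.4 in control libraries and 105, 101 and 102 in induced libraries. Both groups were tight, and they did not overlap. Mean C4b was 260.8 ± 13.5 CPM against 586 ± 13.0 CPM, a log2 fold change of 1.17 (SE 0.05, edgeR adjusted p = 2.21e-13). Its copy C4a, which shares 16.5% of the C4b windows, stood at 0.557 ± 0.104 CPM before and 0.492 ± 0.212 CPM after induction, with overlapping groups.

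C2 (ENSMUSG00000024371, chromosome 17, 34862604 to 34898265, minus strand) was scarce. It had 1.82, 1.63 and 2.65 CPM in control libraries and 10.9, 10.5 and 9.01 CPM in induced libraries. The mean of 2.04 ± 0.544 CPM thus became 10.1 ± 0.986 CPM, the steepest rise among the members, with a log2 fold change of 2.31 (SE 0.17, edgeR adjusted p = 1.37e-09), or 4.95-fold. Even so, mean FPKM of C2 in induced cells was 2.61 ± 0.253, beside 103 ± 2.41 for C4b. The C2 to C4b ratio of FPKM lay between 0.00976 and 0.0144 in control cells and between 0.0228 and 0.0268 in induced cells.

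Cfb (ENSMUSG00000090231, chromosome 17, 34856374 to 34862518, minus strand), factor B of the alternative pathway, lies next to C2. It had 7, 1 and 6 reads in control libraries and 4, 12 and 6 reads in induced libraries. The groups overlapped, and at 14 against 22 pooled reads the ratio scaled to library totals was 1.64 (95% exact binomial interval 0.801 to 3.46, counting error only). A change of Cfb was thus not detectable at this depth. C2 and Cfb are also hard to count apart. The annotated read-through gene Gm20547 covers 42.8% of the exon bases of C2 and 79.5% of those of Cfb on the same strand, and was itself listed at 0 reads in all 6 libraries. The levels of C2 and Cfb are therefore uncertain, since reads in the shared bases may have been dropped.

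Among the regulators, Cfi (ENSMUSG00000058952, chromosome 3, 129835884 to 129875332, plus strand) encodes factor I, the protease that inactivates C3b and C4b. It had 10, 8 and 12 reads in control libraries and 39, 39 and 46 reads in induced libraries. The groups were well apart, although each value rests on few reads. Mean Cfi was 0.505 ± 0.0967 CPM against 2.18 ± 0.202 CPM, a log2 fold change of 2.09 (SE 0.31, edgeR adjusted p = 8.68e-06).

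Serping1 (ENSMUSG00000023224, chromosome 2, 84765387 to 84775444, minus strand) encodes C1 inhibitor, which blocks C1r and C1s. It had an FPKM of 29.6, 26.2 and 26.0 in control libraries and 27.9, 23.9 and 27.3 in induced libraries. The groups overlapped throughout. The log2 fold change was -0.06 (SE 0.07, 95% interval -0.19 to 0.07, edgeR adjusted p = 0.428), an interval that lies below the rises of C1ra and C1s1. The C3 to Serping1 ratio of FPKM was 10.3, 10.6 and 11.8 in control libraries and 22.9, 26.3 and 23.4 in induced libraries.

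Cd55 (ENSMUSG00000026399, chromosome 1, 130439027 to 130462744, minus strand) encodes decay-accelerating factor, a membrane protein that takes apart the C3-cleaving enzymes. It had 32.7, 30.6 and 28.9 CPM in control libraries and 29.7, 38.5 and 37.1 CPM in induced libraries. Induced library 1 lay within the control range and the others above it. The log2 fold change was 0.19 (SE 0.09, 95% interval 0.02 to 0.36, edgeR adjusted p = 0.0601). Without induced library 1 it was 0.30 (edgeR adjusted p = 0.00246), and without control library 1 it was 0.24 (edgeR adjusted p = 0.0445). Whether Cd55 passed the threshold thus depended on single libraries, and also on the scaling and the filter, as given under the alternatives.

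Summed over the 9 genes, FPKM was 584, 529 and 573 in control libraries and 1139, 1144 and 1140.0 in induced libraries. C3 supplied most of it, 52.5% to 53.3% in control and 55.0% to 56.1% in induced libraries. The share of Serping1 went from 4.54% to 5.08% in control libraries to between 2.09% and 2.45% in induced libraries. In order of mean FPKM the members stood as C3, C1s1, C1ra, C4b, Serping1, Cd55, C2, Cfi and Cfb in both groups. In induced libraries each neighbouring pair in this order was separate in FPKM, and in control libraries too. The order takes the FPKM of C2 and Cfb as deposited, from which reads in bases shared with Gm20547 may have been dropped. The FPKM of C1ra and C1s1 are likewise as deposited, and the handling of reads they share with other genes is not given.

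A wider list of 56 other complement genes showed which parts of the cascade had measurable RNA. Of these, 19 could be tested, of which 9 were higher, 4 were lower and 6 did not pass the test, and 14 of the 37 not tested had 0 reads in all libraries. Their median log2 fold change was -0.04, beside -0.01 over all genes tested. No read was found for C1qa, C1qb and C1qc, the chains of C1q that carries C1r and C1s, for the mannose-binding lectins Mbl1 and Mbl2, or for Cfd, the protease that activates factor B. A count of 0 allows up to 0.151 to 0.158 CPM in these libraries (3 counts, counting error only). The terminal components Hc, C6, C7 and C9 had 0 to 4 reads per library. Measurable RNA thus ran from the proteases to C3, with little for most genes at either end apart from Colec11, Colec12 and C8g, as the plot of levels along the cascade shows.

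**Figure D2:**
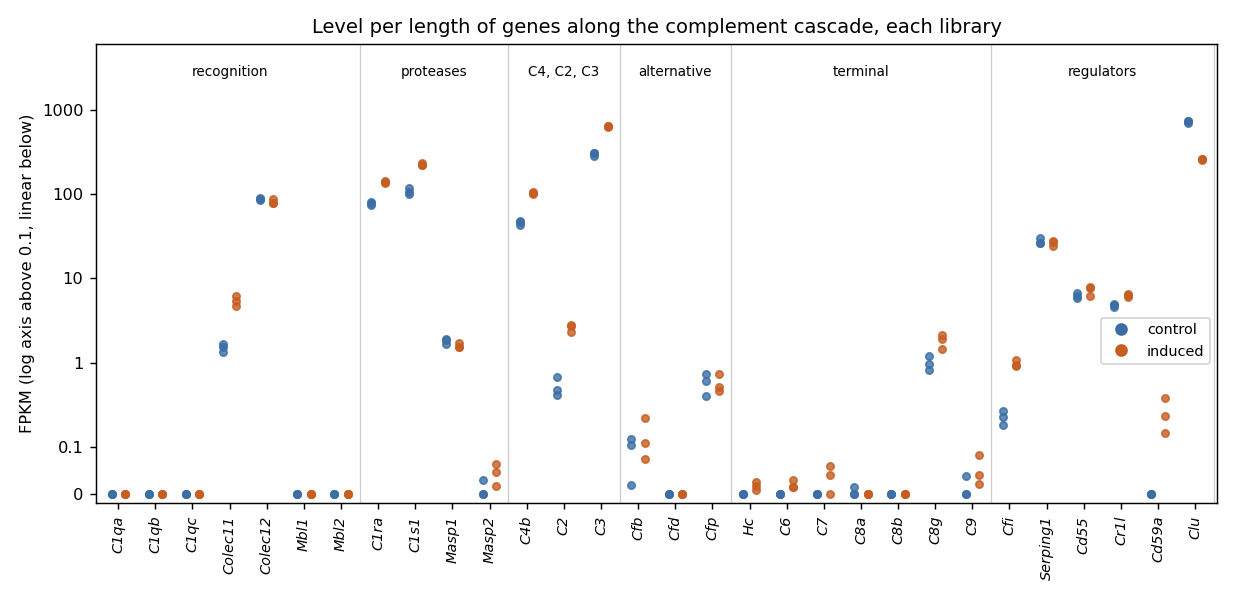
FPKM as deposited (vertical axis, logarithmic above 0.1 and linear below) of complement genes ordered by step of the cascade, with a point for each control (blue) and induced (orange) library. Colec12, C1ra, C1s1, C4b, C3, Serping1 and Clu lie above 10 in all 6 libraries. C1qa, C1qb, C1qc, Mbl1, Mbl2, Cfd and C8b lie at 0 in all 6 libraries.

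Regulators outside the 9 genes moved in both directions. Clu, clusterin, an inhibitor of the terminal complex among other roles, had an FPKM of 730, 694 and 730 in control libraries and 260, 252 and 257 in induced libraries. It fell by 1.50 on the log2 scale (SE 0.04, edgeR adjusted p = 6.54e-16), and so went from above C3 in each control library to below it in each induced library.

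Csmd1, a large membrane protein with complement control repeats, fell by 2.57 on the log2 scale (SE 0.17), from 9.13 ± 0.521 to 1.53 ± 0.283 CPM. Cr1l, a membrane cofactor of the mouse for C3 cleavage, rose by 0.39 (SE 0.06), from 49.8 ± 2.45 to 65.4 ± 2.67 CPM. C4bp, the binding protein of C4b, was at 6.21 ± 0.264 and 5.99 ± 0.447 CPM and did not pass the test (edgeR adjusted p = 0.76). Cd59a, an inhibitor of the terminal complex, had 0 reads in every control library and 13, 8 and 5 reads in induced libraries. Against a limit of 3 counts over the control group, the 26 induced reads gave a ratio of 9.03. That ratio takes the induced reads as exact, so it is no lower bound once their counting error is included.

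Among recognition molecules and proteases outside the 9 genes, C1s2 had values that went opposite to those of C1s1. It had 1.57, 2.29 and 2.51 CPM in control libraries and 0.425, 0.526 and 0.367 CPM in induced libraries, and fell by 2.26 on the log2 scale (SE 0.34, edgeR adjusted p = 1.07e-05). C1s2 passed the filter through the control libraries, with 1 induced library at the limit, so its call could hardly have been other than a fall. C1rb, the copy of C1ra, was at 1.18 ± 0.188 and 1.06 ± 0.148 CPM and did not pass the test, and 42.7% of its windows occur in C1ra. Colec11, a collectin that starts the lectin pathway, rose from 2.46 ± 0.293 to 8.77 ± 1.16 CPM (log2 fold change 1.83, SE 0.16). C1rl, a C1r-like protease, rose by 0.50 (SE 0.06). Masp1, the lectin pathway protease, was at 17.9 ± 1.33 and 15.6 ± 0.943 CPM (edgeR adjusted p = 0.0594), and the scavenger receptor Colec12 at 290.4 ± 9.66 and 269.2 ± 15.7 CPM (edgeR adjusted p = 0.0667). Both missed the threshold.

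Of the remaining components, C8g, the gamma chain of C8, rose from 1.50 ± 0.291 to 2.74 ± 0.532 CPM (log2 fold change 0.87, SE 0.25, edgeR adjusted p = 0.00491). Properdin, Cfp, was at 1.01 ± 0.29 and 0.984 ± 0.246 CPM and did not pass the test. Of 13 genes listed as receptors, 5 were tested and all 5 were called, beside 64.8% of all genes tested. The other 8 had too few reads to be tested, 4 of them with 0 reads in all libraries. C3ar1, C5ar1, C5ar2, Cr2, Itgam and Itgax were among those not tested. Lrp1, an uptake receptor, rose by 0.45 (SE 0.04), Calr, calreticulin, rose by 0.28 (SE 0.04), and the C1q-binding protein gene C1qbp fell by 0.47 (SE 0.05), all on the log2 scale. Itgb2, the shared chain of complement receptors 3 and 4, rose by 0.37 (SE 0.13, edgeR adjusted p = 0.0221). That call was lost without control library 3 (edgeR adjusted p = 0.0894) and without induced library 2 (edgeR adjusted p = 0.0721). Cd93 rose by 0.93 (SE 0.35, edgeR adjusted p = 0.0262), at 0.606 ± 0.198 against 1.16 ± 0.148 CPM, having passed the filter through the induced libraries, with 2 control libraries at the limit. The Cd93 call was lost without control library 1 (edgeR adjusted p = 0.126), control library 2 (edgeR adjusted p = 0.0653) or induced library 1 (edgeR adjusted p = 0.0886).

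**Figure D3:**
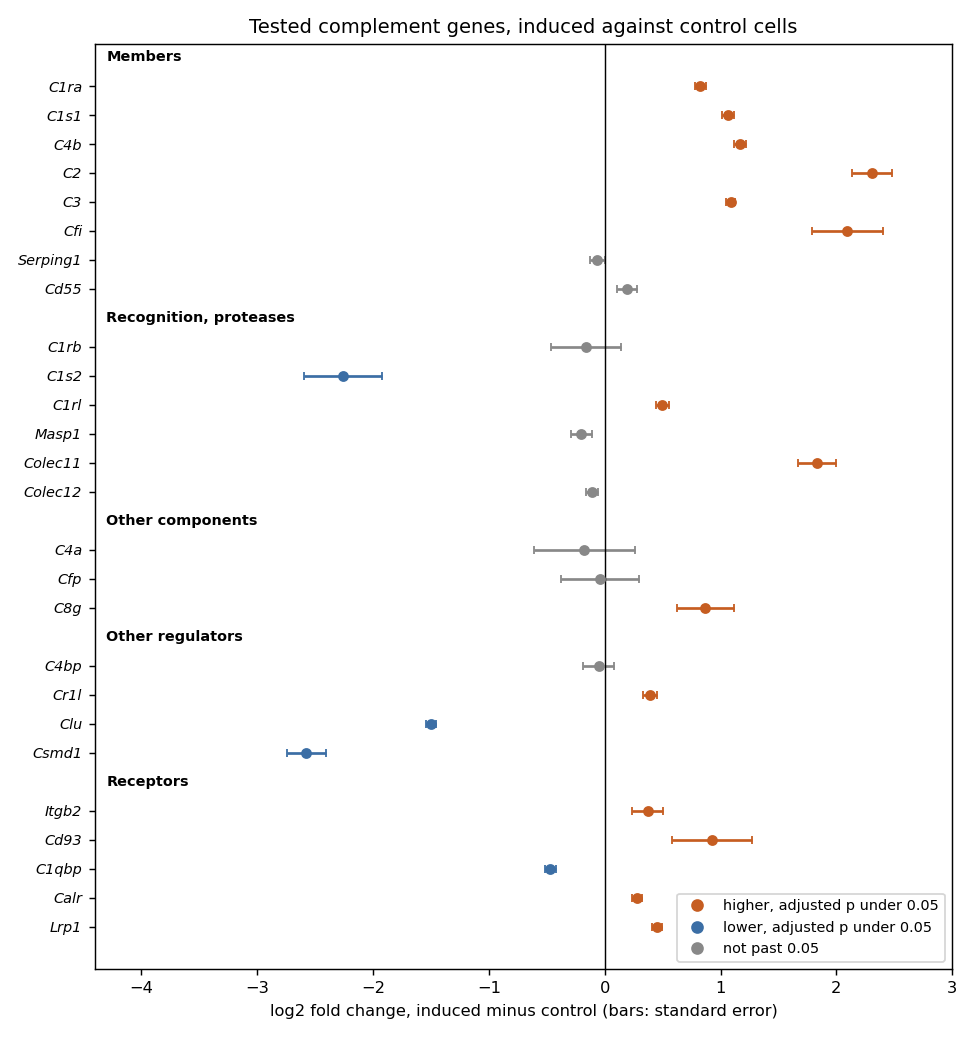
Log2 fold change of tested complement genes, induced minus control (horizontal axis, 0 marks no difference), grouped by role, with bars of 1 standard error and colours for the edgeR call at an adjusted p of 0.05. C2, Cfi and Colec11 stand farthest to the right, Csmd1, C1s2 and Clu farthest to the left, and Serping1 near 0.

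Complement synthesis is known to respond to inflammatory cytokines, so 29 genes of those cytokines, their receptors and their transcription factors were read from the same test. Of 23 tested, 7 were higher and 11 were lower, and Tnf, Ifng and Osm had 0 reads in all libraries. Among cytokines, Lif rose from 20.4 ± 0.72 to 78.9 ± 2.83 CPM (log2 fold change 1.95, SE 0.06), and Il6 was at 3.96 ± 0.425 and 3.09 ± 0.648 CPM and did not pass the test (edgeR adjusted p = 0.112). Among receptors, 3 were higher and 5 lower of 10 tested. Il1r1, the interleukin 1 receptor, fell by 1.39 (SE 0.06) and Lifr, the receptor of Lif, fell by 0.79 (SE 0.07), whereas Ifngr2, a chain of the interferon gamma receptor, rose by 0.53 (SE 0.05), on the log2 scale.

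Among the transcription factors, 3 were higher and 6 lower of 11 tested. Stat2 and Irf9, which act together downstream of interferon, were among the higher ones. Stat2 rose from 30.5 ± 2.54 to 85.4 ± 7.74 CPM (log2 fold change 1.49, SE 0.07) and Irf9 from 29.5 ± 1.70 to 53.9 ± 3.98 CPM (log2 fold change 0.87, SE 0.07). All 12 genes of an interferon-induced list were also higher, and their summed level was 101 to 108 CPM in control libraries and 776, 685 and 936 CPM in induced libraries 1 to 3. The part of interferon signalling in the complement values was not tested.

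Cell type markers moved as well. The mesenchymal markers summed to 19733 to 20514 CPM in control and 18267 to 19683 CPM in induced libraries, with 3 of 8 higher and 5 lower, so the labelled cell type had its markers in both groups. Leukocyte markers summed to 27.3 to 30.1 CPM in control and 54.2 to 61.8 CPM in induced libraries. Of these 10 genes, Cd68, Lyz2 and Fcer1g were higher, Csf1r was lower, and Ptprc, Tyrobp, Itgam, Cd52 and Adgre1, which define leukocytes, had 0 reads in all libraries. Hepatocyte markers summed to 93.0 to 95.1 CPM in control and 39.5 to 41.9 CPM in induced libraries. That sum rests on Ahsg, which fell from 92.0 ± 0.782 to 23.6 ± 0.872 CPM, whereas Ttr rose by 3.32 on the log2 scale (SE 0.17) to 16.1 ± 2.09 CPM, the untested markers had 7 reads in control and 44 in induced libraries, and Alb, which defines hepatocytes, had at most 1 read in any library. Endothelial markers stood at 9.82 to 11.2 and 12.7 to 13.1 CPM, with 2 of 8 tested and 1 called, as higher. Cardiomyocyte markers stood at 13.2 to 16.1 and 58.9 to 62.7 CPM, also with 2 of 8 tested and 1 called, as higher. The untested cardiomyocyte markers had 12 reads in control and 42 in induced libraries, so that sum rests on few genes. The part of other cell types in the complement values was not tested.

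Genes within 100 kb of the members were called about as often as genes in general. This depended on the distance chosen, since within 50 kb the share was larger, with 18 called of 23 tested. Within 100 kb of a member, 44 other genes were tested, of which 11 were higher, 18 were lower and 15 did not pass the test, with a median log2 fold change of -0.18. The 29 called of 44 stand beside 64.8% of all genes tested, so the share called in either direction is near the background. By direction, 32.6% of all genes tested were higher and 32.2% lower, an even split that the neighbours did not have. C4b, C2 and Cfb lie in the major histocompatibility complex region of chromosome 17, and of 18 tested genes around them 2 were higher and 10 lower. Of those 18, only Neu1, the lysosomal sialidase, rose at least 2-fold, from 61.3 ± 1.71 to 138 ± 6.93 CPM, and only the non-coding gene 1110038B12Rik fell that far, from 87.6 ± 4.46 to 33.4 ± 4.93 CPM. Zbtb12, which overlaps C2 on the opposite strand over 161 exon bases, fell from 21.6 ± 0.899 to 10.9 ± 0.78 CPM while C2 rose. Around C1ra and C1s1, Clstn3 rose by 1.40 (SE 0.22) and C1s2 fell on the log2 scale. Around Serping1, Slc43a1 fell by 1.78 (SE 0.11), Selenoh by 1.33 (SE 0.06) and the non-coding gene Gm19426 by 1.15 (SE 0.27). The plot of neighbours by distance shows members beside higher genes, lower genes and genes that did not pass the test.

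**Figure D4:**
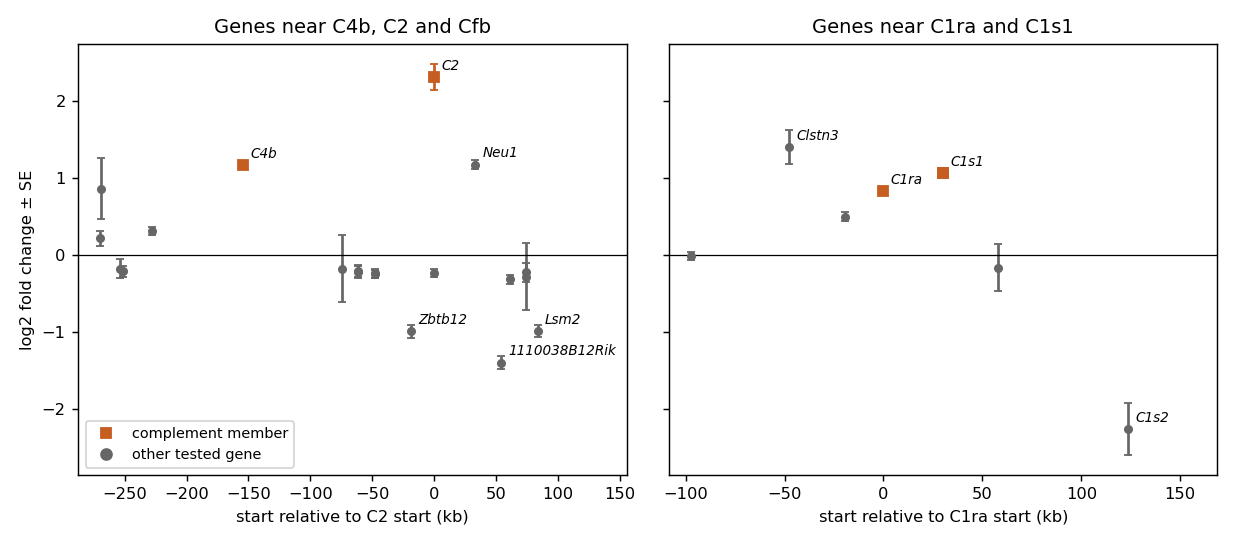
Log2 fold change with standard error (vertical axis) of tested genes around C4b, C2 and Cfb (left) and around C1ra and C1s1 (right), by distance of their transcription start from that of C2 or C1ra in kilobases (horizontal axis); orange squares are members and grey points are other genes. On the left, C2 at 2.31 stands above all other points, C4b and Neu1 both lie at 1.17, and most grey points lie at or below 0.

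The genes most alike to a member over the 6 libraries were taken from 9462 tested genes of at least 10 CPM in mean, by Pearson correlation of log2 CPM. For C3 they included Ppp2r5b and Rab5c, each with r = 1.00, and for C4b they were Eln, Foxo6 and Fgf18, also with r = 1.00. The points are 6 libraries in 2 separate groups, so r mostly repeats the difference between groups, and 2019 genes passed r = 0.95 with C3 and 2028 with C4b. Eln, elastin, for example, went from 16.9 to 21.7 CPM in control to between 172 and 197 CPM in induced libraries. For Serping1 the most alike genes were Pex5 (r = 0.93), Enoph1 (r = 0.92) and Malsu1 (r = 0.92), and no gene passed 0.95.

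Depth was even, with 19041133 to 19823369 counted reads in a library, and 19591 to 20501 genes were detected. No 2 libraries of a group were copies, since their counts differed beyond counting noise in all 6 pairs (chi-square divided by its degrees of freedom, 2.56 to 8.91). The human telomerase transgene is not a row of this mouse table, so it could not serve as a check of the labels.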

How the data were processed

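RNA was sequenced from 3 control and 3 induced samples, with groups and replicate numbers taken from the sample titles. Per the submitters' processing notes, reads were handled with HISAT2 2.0.5, featureCounts 1.5.0-p3 and DESeq2 1.16.1 on build mm10. The strand setting and the handling of reads in shared exons are not given in the sources used here. The authors deposited raw read counts per gene, without normalization, and FPKM values, each a count over gene length and a library depth. Their columns of fold changes, p-values and group means, and their Gene Ontology tables, were not used. Coordinates are those of the deposited table, and 98.3% of its genes in GENCODE M21 (a GRCm38 annotation) had the same ones there.

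The test was run with edgeR 4.0.16 in R 4.3.3. The filterByExpr function (minimum count 10, minimum total 15) left 14246 genes with 99.9% of reads. Libraries were scaled by TMM and compared by quasi-likelihood tests, two-sided, with p-values adjusted by Benjamini-Hochberg over all 14246 genes at 0.05. CPM are TMM-scaled, fold changes were fitted with a prior count of 0.125, and the biological coefficient of variation was 5.82%. The median log2 fold change of all genes tested was -0.01. Depth limits a count of 0 to 3 counts. That limit and the binomial interval of Cfb cover counting error only. The standard error of a log2 fold change is its size over the square root of the edgeR test statistic F, which takes in the spread between libraries. The 95% intervals use this standard error with the normal quantile, so they are somewhat narrow beside the edgeR p-values. The reads carry no molecular identifiers. The fit was tested on simulated data.

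The members and gene lists were chosen with earlier results of these data known. Genes named are the 9 members, every tested gene of the other complement lists, the 3 smallest p per cytokine list, neighbours within 100 kb changed at least 2-fold, and the 3 genes most correlated with C3, C4b and Serping1. Zbtb12, Cd59a and genes with few or 0 reads were named after their values were seen, as were Eln's values and the hepatocyte markers. A few genes that this rule names are not reported here, though counts include them. Of 8 hepatocyte markers, 7 were found in the table. Sequences are from RefSeq. Alternatives were leaving out each library, a replicate block, neighbours within 50 kb, DESeq2 1.42.0, scaling by library totals or by median ratios, limma 3.58.1 on log2 FPKM with 1 or 0.1 added, a threshold of 0.01, and filters that were absent or stricter (1 CPM and a mean count of 10).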

Additional observations from a re-analysis of the deposited data

How the results depend on the processing

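Of 120 values of the 8 tested members under the alternatives, 116 gave the same call, and the other 4 brought Cd55 past the threshold. Besides the libraries left out above, these were median-ratio scaling in edgeR (log2 fold change 0.20, adjusted p = 0.0474) and edgeR with no filter (0.20, adjusted p = 0.0212). Adjusted p of Cd55 ranged from 0.00246 to 0.188 over the alternatives. The sign of Serping1, which was never called, turned in some of them (-0.10 to 0.01). The count of members changed ranged from 6 to 7, also on leaving out each library, that of other complement genes from 11 to 15 (12 to 13 on leaving out each library), that of cytokine signalling genes from 17 to 19, and that of all genes from 7783 to 9765. Of 284 values of the other complement genes, 270 were the same, with 9 weaker and 5 stronger, in Masp1, Colec12, Itgb2 and Cd93. Within 50 kb, 18 neighbouring genes were changed, 8 higher and 10 lower of 23 tested, with fewer genes in reach. This share was larger than the 29 of 44 within 100 kb and the 64.8% of all genes tested.

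Same-numbered control and induced libraries had correlations of deviations of -0.03, -0.03 and 0.03 across genes, which gave no sign of pairing by number. Such values cannot exclude a pairing by design. With the replicate block, 6 members and 9063 genes in all were changed. On the log2(FPKM + 1) scale the differences of scarce genes shrank by construction, to 1.25 for C2 and 0.69 for Cfi. Depth limits Cfb, Cfi and the terminal components.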
